A study of Mus musculus with 8 samples.

Results

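The mitosis genes described here are 36 genes that encode the cyclins and kinases of mitotic entry, the spindle checkpoint, the chromosomal passenger complex, the spindle, the machinery of chromosome separation and the cytokinesis apparatus. They were taken by symbol from gene tables that list 24318 symbols, and each of the 36 had 1 entry. RNA was sequenced from mouse E14 cells, an established embryonic stem cell line, in 4 groups of 2 libraries. The groups were neural progenitor cells derived from Wdr68 knockout cells (KO NPC), those derived from wild-type cells (WT NPC), undifferentiated Wdr68 knockout cells (KO ESC) and undifferentiated wild-type cells (WT ESC). The labels call the libraries duplicates and do not say whether they came from separate cultures, so the p-values rest on a spread that may be only technical.

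Before differentiation, all ESC were grown with serum, LIF and inhibitors of Mek and GSK3, on mouse embryonic fibroblast feeders or on gelatin. For differentiation, cells taken off feeders formed embryoid bodies in hanging drops of 500 cells for 2 days, stayed in suspension for 2 more days and were then given retinoic acid for 4 days. How the knockout was made, and whether it was 1 clone, is not given in the sources used here. The NPC libraries hold RNA of whole differentiated cultures. In such bulk RNA, more dividing cells and more mitotic RNA per cell cannot be told apart.

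Genes of this kind are transcribed mainly from the later S phase into mitosis and are low in cells that have left the cell cycle. In resting cells and early in the cycle the DREAM complex, built from MuvB proteins, a pocket protein and E2F4, keeps many of them off. Later in the cycle MuvB proteins pair with B-Myb and FOXM1, and the same genes are switched on. Their promoters often carry a CHR (cell cycle genes homology region) element, which MuvB binds, and CCAAT boxes, which bind the factor NF-Y. The level of these RNAs in a culture is commonly read as a measure of its dividing fraction, and mouse ESC are known for fast division with a short first gap phase. WDR68, encoded by Dcaf7, is a scaffold protein that binds the kinases DYRK1A and DYRK1B, and DYRK1A is known from human cells to phosphorylate the MuvB protein LIN52.

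The promoters of 7 members are printed as examples of an arrangement that part of the members share and of the one with no match. The 6 with matches all have the core of a CHR element wholly before the annotated start. Members whose core only spans or follows the start are not shown. Each stretch is the 150 bases before the annotated start, from RefSeq on GRCm38.p6, read 5′ to 3′ on the strand of the gene. Capitals mark the core letters of a CHR element, TTTGAA or its reverse complement TTCAAA, and the NF-Y box, CCAAT or its reverse complement ATTGG. The entry kinase gene Cdk1 lies at chr10:69352913-69353062 on the minus strand, the cyclin gene Ccnf at chr17:24251410-24251559 on the minus strand and the topoisomerase gene Top2a at chr11:99024190-99024339 on the minus strand. The stretch of the anaphase activator gene Cdc20 is chr4:118437344-118437493 on the minus strand, that of the ubiquitin-conjugating enzyme gene Ube2c chr2:164769779-164769928 on the plus strand and that of the separase gene Espl1 chr15:102296143-102296292 on the plus strand. That of Birc5, the member with the largest change in knockout NPC, is chr11:117849087-117849236 on the plus strand.
Cdk1: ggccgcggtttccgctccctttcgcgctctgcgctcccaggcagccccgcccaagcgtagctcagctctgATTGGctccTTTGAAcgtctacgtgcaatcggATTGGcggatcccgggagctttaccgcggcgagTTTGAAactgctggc
Ccnf: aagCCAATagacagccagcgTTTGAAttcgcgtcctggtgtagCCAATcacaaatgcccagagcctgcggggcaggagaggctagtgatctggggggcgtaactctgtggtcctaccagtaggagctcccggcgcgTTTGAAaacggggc
Top2a: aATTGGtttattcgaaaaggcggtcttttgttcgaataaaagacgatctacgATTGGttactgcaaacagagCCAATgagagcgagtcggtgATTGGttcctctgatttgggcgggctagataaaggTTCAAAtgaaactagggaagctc
Cdc20: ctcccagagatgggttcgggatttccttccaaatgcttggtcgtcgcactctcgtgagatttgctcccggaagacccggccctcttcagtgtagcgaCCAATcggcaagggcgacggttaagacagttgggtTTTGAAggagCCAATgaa
Ube2c: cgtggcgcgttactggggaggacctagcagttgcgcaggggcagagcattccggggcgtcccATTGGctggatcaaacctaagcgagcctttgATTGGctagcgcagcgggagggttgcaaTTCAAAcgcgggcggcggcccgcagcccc
Espl1: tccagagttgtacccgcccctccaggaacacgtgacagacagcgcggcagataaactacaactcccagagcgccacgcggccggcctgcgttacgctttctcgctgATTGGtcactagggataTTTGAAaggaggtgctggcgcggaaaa
Birc5: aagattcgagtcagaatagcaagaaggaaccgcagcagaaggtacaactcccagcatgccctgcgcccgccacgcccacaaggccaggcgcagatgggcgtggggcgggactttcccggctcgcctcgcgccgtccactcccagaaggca
Both motifs are present in 6 of these stretches, whose genes range from the entry kinase to separase. Neither set of letters is in the Birc5 stretch.

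RefSeq promoters of 300 bases, 250 before and 50 after the start, were matched for 30 of the 36 members. The others are Ccna2, Aurkb, Kif20a, Tpx2, Incenp and Foxm1. The CHR core was found on either strand in 22 of the 30 members (73.3%), against 20.2% of the promoters of all 27025 genes in the table. An NF-Y box was found in 24 of the 30 (80%), against 41.1% of all genes. Both were present in 20 of the 30 (66.7%), against 8.97% of all genes. The promoters of 29 DNA replication genes held the CHR core in 13.8% and an NF-Y box in 65.5%, so the share with a CHR core was lower there than in the mitosis genes, while the shares with an NF-Y box were closer. Those of 62 other mitosis genes, a list given further on, held the CHR core in 58.1%, an NF-Y box in 66.1% and both in 43.5%. A CHR core that lay wholly before the start was found in 12 of the 30 members (40%), against 40.3% of the other mitosis genes and 18.3% of all genes, and in the other 10 members with a core it spanned or followed the start. In 15 of the 30 members (50%) an NF-Y box began 15 to 45 bases before a CHR core. The share was 22.6% in the other mitosis genes, 3.45% in the DNA replication genes and 1.34% in all genes. This spacing was chosen after the positions in the members had been seen, so the share of the members is not independent of it. A CHR core and an NF-Y box can share 1 end base. A match is a description of the sequence and not of binding, and none of these shares was tested.

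**Figure D1:**
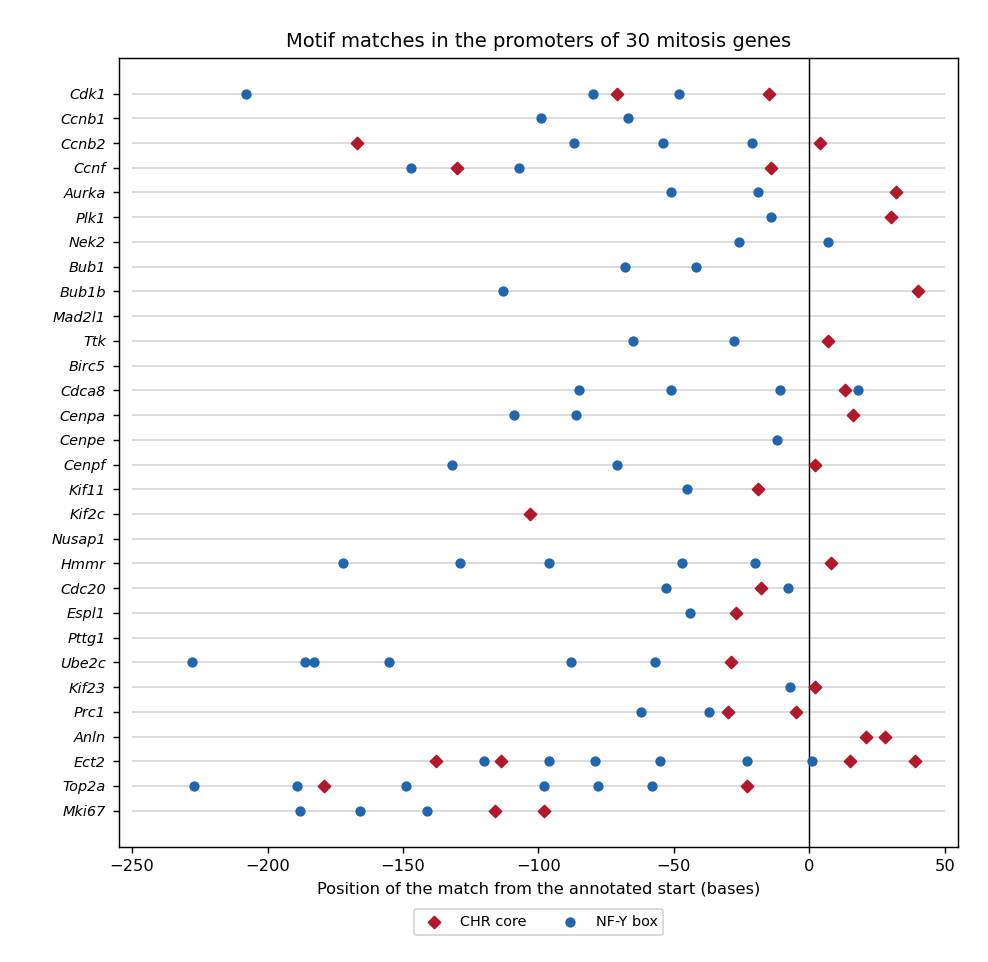
Positions of CHR core (red diamonds) and NF-Y box (blue circles) matches on either strand in the RefSeq promoters of 30 mitosis genes. The horizontal axis is the distance in bases of the first base of the match from the annotated start, from 250 before to 50 after it. For genes with more than 1 annotated start, matches of all starts share a line, each placed from its own start. Matches of both kinds sit mostly within the last 150 bases before the start and just after it, and 4 genes (Mad2l1, Birc5, Nusap1 and Pttg1) have none.

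All 36 members had an FPKM (a count of sequenced fragments divided by transcript length and by library depth) of at least 1 in all 8 libraries, so the filter on low values removed none. Depth was inferred from the confidence bounds in the tables, and the libraries summed to between 5996677 and 7942644 implied fragments. The member with the fewest had 24 implied fragments in its lowest library (Pttg1), and the median over members of the lowest library was 651.5. The inference is meant for genes with 1 start site, and Pttg1 is 1 of 4 members with more, so its number is rough. Among genes with 1 start site and under 5 implied fragments, 62.2% to 66.4% per library lay within 0.05 of a whole number. The library sums also include genes with more start sites, so they are approximate. The 36 genes together summed to 1834 and 1822 FPKM in KO NPC, 1439.9 and 1382 FPKM in WT NPC, 2171 and 2214 FPKM in KO ESC, and 2115 and 2144 FPKM in WT ESC. WT NPC thus had the lowest sums, and in FPKM as deposited KO NPC lay between WT NPC and the ESC groups. Small RNA genes took 25.2% to 29.9% of all FPKM in the NPC libraries and 32.5% to 41.4% in the ESC libraries. Of the FPKM of all other genes, the 36 made up 0.458% and 0.457% in KO NPC, 0.370% and 0.339% in WT NPC, 0.472% and 0.452% in KO ESC, and 0.475% and 0.470% in WT ESC. On that scale KO NPC overlapped KO ESC, and WT NPC was still the lowest. Dcaf7, the targeted gene, had 8.36 and 8.99 FPKM in KO NPC, against 27.2 and 29.6 FPKM in WT NPC, and 2.80 and 2.26 FPKM in KO ESC, against 12.4 and 14.2 FPKM in WT ESC. Its log2 change was -1.60 ± 0.12 in NPC and -2.02 ± 0.12 in ESC (SE, adjusted p = 1.26e-04 and 0.00109). Dcaf7 RNA was lower in the knockout libraries of both stages and not at 0 in any.

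**Figure D2:**
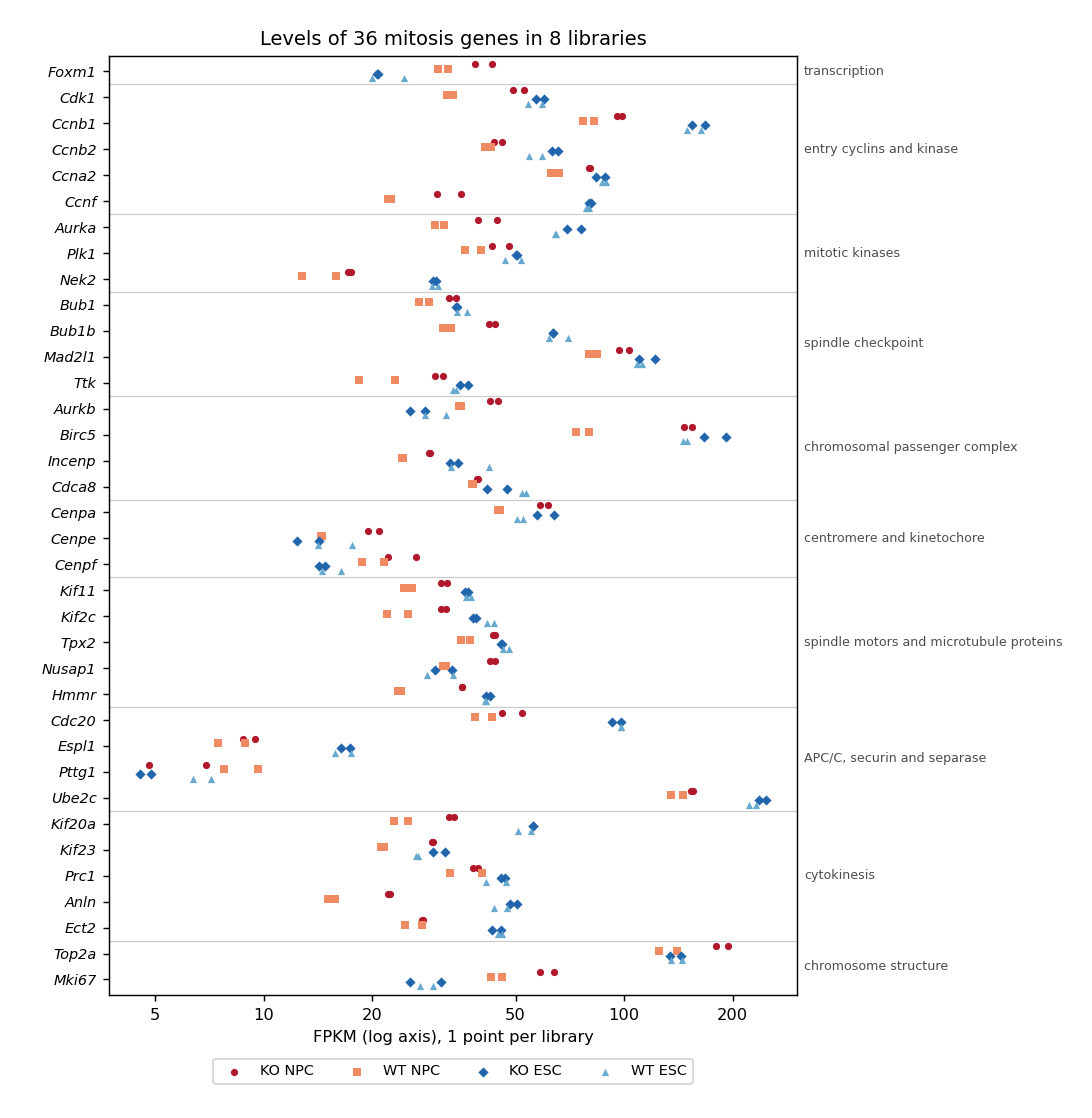
FPKM of the 36 mitosis genes in each of 8 libraries, on a log axis, grouped by role. Each point is 1 library: red circles KO NPC, orange squares WT NPC, dark blue diamonds KO ESC and light blue triangles WT ESC. For most genes the WT NPC points are the lowest of the 4 groups, and the KO NPC points lie to their right, as for Birc5 (154 and 147 FPKM against 80.1 and 73.6 FPKM).

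The first comparison asks what the knockout changes after differentiation. In KO NPC, 24 of the 36 mitosis genes were higher than in WT NPC, none was lower and 12 were not called. A call is an adjusted p under 0.05, from limma on log2(FPKM + 1) with Benjamini-Hochberg adjustment over all 13318 genes tested, of which 14.7% were called higher and 12.7% lower. The median change of the 36 was 0.32 on the log2 scale, against 0.05 over all genes tested, and the called genes were 1.19 to 1.95 times as high in FPKM + 1. In 32 of the 36, both KO NPC libraries lay above both WT NPC libraries, against 36.6% of all genes. In 1 they lay below both, against 27.0% of all genes, and in 3 they overlapped. The changes were small in size: none of the 36 reached a log2 change of 1 in either direction, the largest being Birc5.

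The count rests on all 4 NPC libraries. It was 11 without KO NPC replicate 1, 13 without KO NPC replicate 2, 16 without WT NPC replicate 1 and 12 without WT NPC replicate 2. The call held in all of these fits for 9 of the 24 genes: Cdk1, Ccnf, Birc5, Cenpa, Hmmr, Kif20a, Kif23, Anln and Top2a. For 8 others, Foxm1, Ccnb1, Bub1, Mad2l1, Aurkb, Cenpe, Nusap1 and Mki67, it was lost in each of the 4 fits, with adjusted p between 0.0506 and 0.204. The remaining 7 kept it in some fits: Ccna2, Aurka and Bub1b lost it without KO NPC replicate 1 or WT NPC replicate 2, Kif11 without KO NPC replicate 2 or WT NPC replicate 2, Ttk without KO NPC replicate 1, Kif2c without KO NPC replicate 2, and Tpx2 in all but the fit without WT NPC replicate 2. Their adjusted p in these fits ran from 0.0501 to 0.0934. In all 24, the change stayed above 0 in each of the 4 fits. The count was 19 under median-ratio scaling, which ended the calls of Aurkb, Bub1, Ccnb1, Foxm1 and Mad2l1 (adjusted p 0.0524 to 0.0836). Under quantile normalization it was 20, with Aurkb, Bub1, Foxm1 and Tpx2 lost (adjusted p 0.07025 to 0.1054). With no filter on low values, Aurkb, Ccnb1, Cenpe, Foxm1, Mad2l1, Mki67 and Nusap1 lost their call (adjusted p 0.051 to 0.12). Foxm1 also lost its call with a pseudocount of 0.1 (adjusted p = 0.0502).

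The NPC groups also differed in markers of cell identity. The 8 neural progenitor markers summed to 46.2 to 49.1 FPKM in KO NPC and 263 to 266 FPKM in WT NPC, and 5 to 6 of the 8 reached 1 FPKM in KO NPC, against 8 in WT NPC. Before differentiation this list, which includes Sox2, summed to 87.7 to 88.2 FPKM in KO ESC and 94.4 to 107 FPKM in WT ESC. The 6 markers of postmitotic neurons, cells that no longer divide, summed to 12.2 to 17.1 FPKM in KO NPC and 313 to 330.3 FPKM in WT NPC, with 5 and 6 of them at 1 FPKM or more. They summed to 115.1 to 115.2 FPKM in KO ESC and 118.1 to 118.2 FPKM in WT ESC, with 2 of the 6 at 1 FPKM or more. The sum is thus not particular to neurons. The 8 blood and endothelium markers ran the other way, at 856 to 1053 FPKM in KO NPC, against 90.2 to 119 FPKM in WT NPC, where Gata1 was listed at 0 in both libraries. The embryonic globin genes Hba-x, Hbb-bh1 and Hbb-y made up most of these sums in both groups. The blood and endothelium list summed to 24.6 to 26.6 FPKM in KO ESC and 23.4 to 24.2 FPKM in WT ESC. The 7 mesoderm and heart markers summed to 94.8 to 112 FPKM in KO NPC, against 11.1 to 12.2 FPKM in WT NPC, where Myl7 was listed at 0 in both libraries and Myh6 in 1. Their sum was 14.3 to 18.8 FPKM in KO ESC and 18.5 to 18.9 FPKM in WT ESC. Feeder fibroblast markers summed to 70.3 to 83.0 FPKM in KO NPC and 96.4 to 108 FPKM in WT NPC, with none of the 8 at 0. In ESC they summed to only 1.72 to 2.12 FPKM (KO ESC) and 1.89 to 2.52 FPKM (WT ESC). All 8 were called higher in WT NPC than in WT ESC, and 6 in KO NPC than in KO ESC, against 41.6% of all genes in each. The list name therefore does not give the source of these RNAs in NPC, which was not tested. The 8 ESC markers summed to 9.05 to 10.3 FPKM in KO NPC and 35.4 to 43.3 FPKM in WT NPC, with Sox2, which neural progenitors also express, as the main difference. The KO NPC cultures thus went against the neural progenitor label in part. The WT NPC cultures also held RNA of neuron, blood and fibroblast markers, so neither NPC group carried neural progenitor markers alone. The part of these marker differences in the higher mitosis gene levels was not tested.

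**Figure D3:**
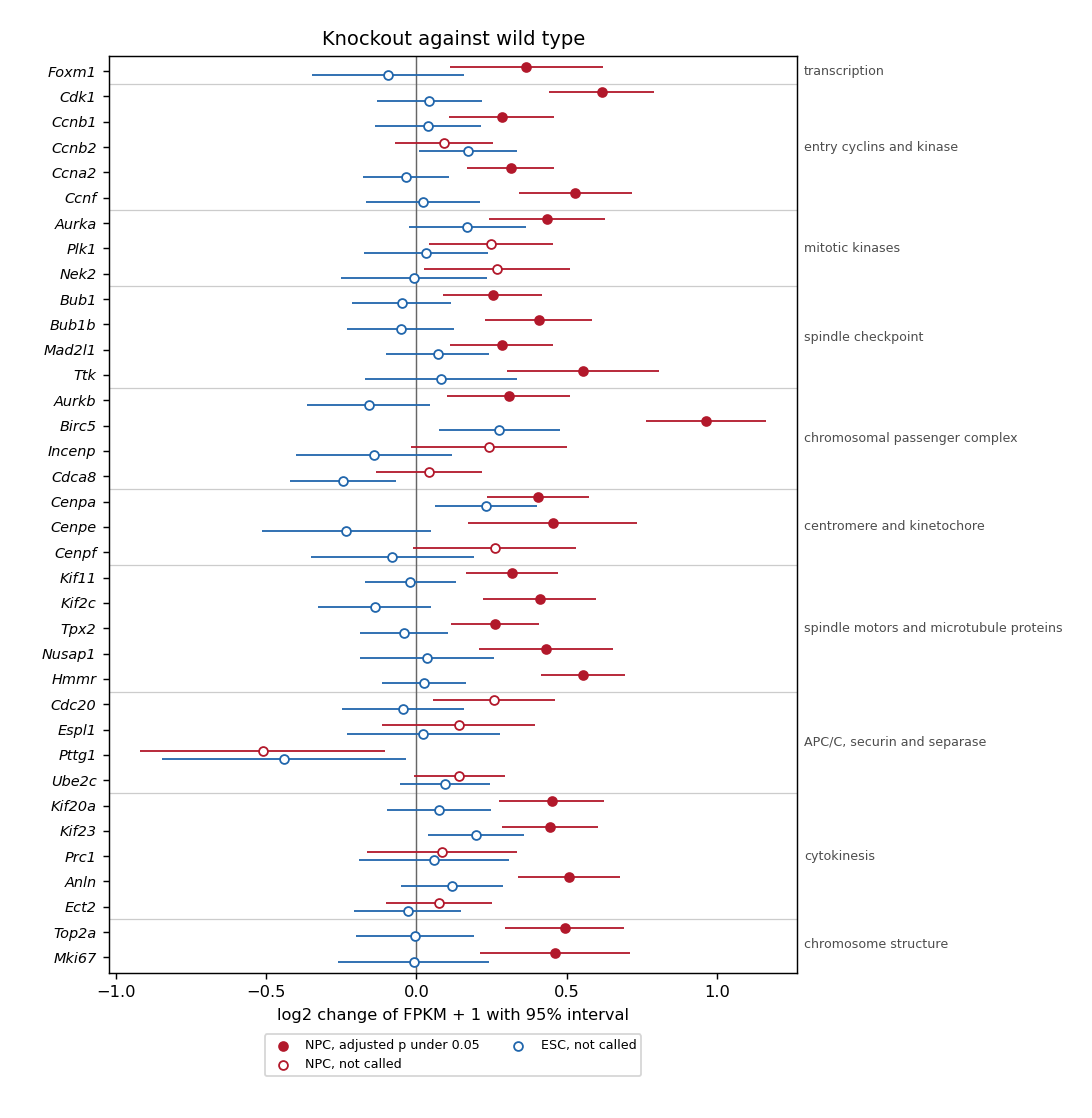
Log2 change of FPKM + 1 with its 95% interval for 36 mitosis genes, in KO NPC against WT NPC and in KO ESC against WT ESC, grouped by role. Filled points have an adjusted p under 0.05 and open points do not. In NPC, 24 of the 36 points are filled, all to the right of 0, and in ESC all 36 are open and lie between -0.44 and 0.28.

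Foxm1, the transcription factor that drives many G2 and mitosis genes, stands upstream of the rest. It had 43.1 and 38.6 FPKM in KO NPC, 32.5 and 30.4 FPKM in WT NPC, 20.8 and 20.6 FPKM in KO ESC and 24.6 and 20.001 FPKM in WT ESC (chr6:128313012-128325904, mm9). Both KO NPC libraries were the highest of the 8 and the ESC libraries the lowest. Its log2 change in KO NPC against WT NPC was 0.37 ± 0.11 (SE, adjusted p = 0.0437).

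Of the 5 genes grouped here as cyclins and kinase of mitotic entry, 4 were higher in KO NPC. The group includes Ccnf, a cyclin by name whose protein is described below as a ligase receptor. Cdk1, the kinase that drives entry into mitosis (chr10:68799383-68815660, mm9), had 52.8 and 49.0 FPKM in KO NPC, 33.5 and 32.2 FPKM in WT NPC, 57.1 and 59.9 FPKM in KO ESC and 54.2 and 59.4 FPKM in WT ESC. The KO NPC libraries lay well above those of WT NPC and just under the ESC libraries, and the change was 0.62 ± 0.07 (SE, adjusted p = 0.00118). Ccnb1, cyclin B1, the main mitotic partner of Cdk1 (chr13:101548694-101556441, mm9), had 98.4 and 95.6 FPKM in KO NPC, 82.3 and 76.9 FPKM in WT NPC, 155 and 167 FPKM in KO ESC and 149.8 and 164 FPKM in WT ESC. Its change of 0.28 ± 0.07 (adjusted p = 0.0294) was smaller, and both NPC groups stayed far below the ESC groups. Ccna2, cyclin A2, which acts in S phase and early mitosis (chr3:36463787-36470918, mm9), had 80.5 and 79.7 FPKM in KO NPC, 65.9 and 62.6 FPKM in WT NPC, 83.4 and 88.5 FPKM in KO ESC and 89.1 and 87.1 FPKM in WT ESC. The change was 0.31 ± 0.06 (adjusted p = 0.00923), with no overlap of the NPC groups. Ccnf, which encodes cyclin F, the substrate receptor of an SCF ubiquitin ligase, had 35.3 and 30.3 FPKM in KO NPC, 22.6 and 22.2 FPKM in WT NPC, 80.8 and 79.7 FPKM in KO ESC and 78.3 and 79.8 FPKM in WT ESC. It was higher by 0.53 ± 0.08 (adjusted p = 0.00317) and stayed far below its ESC level. Ccnb2, cyclin B2, averaged 44.7 ± 1.56 FPKM in KO NPC and 42.0 ± 1.18 FPKM in WT NPC (SD, n = 2 each) and was not called, at 0.09 ± 0.07 (adjusted p = 0.388).

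Among the 3 mitotic kinases outside the passenger complex, only Aurka passed. This kinase of centrosomes and spindle poles averaged 42.0 ± 3.60 FPKM in KO NPC and 30.8 ± 1.29 FPKM in WT NPC (SD, n = 2 each), a change of 0.43 ± 0.08 (adjusted p = 0.00806). Plk1, the polo-like kinase that acts from mitotic entry to cytokinesis (chr7:129302951-129313389, mm9), had 47.9 and 43.0 FPKM in KO NPC, 40.01 and 36.2 FPKM in WT NPC, 50.4 and 50.1 FPKM in KO ESC and 51.7 and 46.7 FPKM in WT ESC. The KO NPC libraries lay above the WT NPC libraries by a narrow gap, and the change of 0.25 ± 0.09 was not called (adjusted p = 0.0768). Nek2, a kinase of centrosome separation, averaged 17.3 ± 0.232 FPKM in KO NPC and 14.3 ± 2.21 FPKM in WT NPC and was not called either, at 0.27 ± 0.10 (adjusted p = 0.0990).

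All 4 spindle checkpoint genes were higher in KO NPC. Ttk, which encodes the checkpoint kinase MPS1, had 31.5 and 29.9 FPKM in KO NPC, 23.1 and 18.4 FPKM in WT NPC, 34.96 and 36.9 FPKM in KO ESC and 33.5 and 34.3 FPKM in WT ESC. Its change of 0.55 ± 0.11 (adjusted p = 0.00899) was the fourth largest of the members, and the WT NPC libraries were the lowest of the 8. Bub1b, which encodes the checkpoint protein BUBR1, averaged 43.1 ± 1.13 FPKM in KO NPC and 32.2 ± 1.14 FPKM in WT NPC (SD, n = 2 each), a change of 0.41 ± 0.08 (adjusted p = 0.00748). Mad2l1, the MAD2 protein that restrains CDC20, averaged 99.9 ± 4.29 FPKM in KO NPC and 81.9 ± 2.88 FPKM in WT NPC, a change of 0.28 ± 0.07. Bub1, a kinase of the kinetochore, averaged 33.3 ± 1.06 FPKM in KO NPC and 27.8 ± 1.22 FPKM in WT NPC, a change of 0.25 ± 0.07, and had the smallest change of the 24 called genes. Its call was also lost under median-ratio scaling (adjusted p = 0.0649) and quantile normalization (adjusted p = 0.0788).

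In the chromosomal passenger complex, which corrects attachments of chromosomes to the spindle and later acts at the midzone, 2 of 4 genes were higher. Birc5, which encodes survivin (chr11:117710551-117717057, mm9), had 154 and 147 FPKM in KO NPC, 80.1 and 73.6 FPKM in WT NPC, 166 and 192 FPKM in KO ESC and 145 and 149 FPKM in WT ESC. The KO NPC libraries were near the WT ESC libraries, while the WT NPC libraries lay far below them. Its change of 0.96 ± 0.08 (SE, 95% interval 0.76 to 1.16, adjusted p = 2.84e-04) was the largest of the 36. Aurkb, the kinase of the complex (chr11:68859145-68865164, mm9), had 42.4 and 44.8 FPKM in KO NPC, 34.8 and 35.2 FPKM in WT NPC, 28.1 and 25.5 FPKM in KO ESC and 32.0 and 28.1 FPKM in WT ESC. Its highest values were those of KO NPC, at a change of 0.31 ± 0.09 (adjusted p = 0.0383). Incenp, the scaffold of the complex, averaged 28.8 ± 0.0787 FPKM in KO NPC and 24.3 ± 0.0966 FPKM in WT NPC and was not called, at 0.24 ± 0.11 (adjusted p = 0.153). Cdca8, which encodes borealin, had 39.4 and 39.0 FPKM in KO NPC, 38.2 and 37.9 FPKM in WT NPC, 41.7 and 47.4 FPKM in KO ESC and 53.5 and 52.2 FPKM in WT ESC. The NPC groups lay side by side, with a change of 0.04 ± 0.07 (95% interval -0.13 to 0.22). Genes of 1 complex therefore ranged from about no difference to the largest of the set.

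Of the 3 centromere and kinetochore genes, 2 were higher. Cenpa, the histone H3 variant that marks centromeres, averaged 59.9 ± 2.26 FPKM in KO NPC and 45.04 ± 0.484 FPKM in WT NPC (SD, n = 2 each), a change of 0.40 ± 0.07 (adjusted p = 0.00622). Cenpe, a kinetochore motor that moves chromosomes to the spindle equator, had 19.5 and 20.9 FPKM in KO NPC, 14.4 and 14.5 FPKM in WT NPC, 14.2 and 12.4 FPKM in KO ESC and 14.2 and 17.6 FPKM in WT ESC. The KO NPC libraries were above the other 6, and the change was 0.45 ± 0.12 (adjusted p = 0.0295). Cenpf, a large protein of the nuclear matrix and the outer kinetochore, had 22.2 and 26.5 FPKM in KO NPC, 21.5 and 18.7 FPKM in WT NPC, 14.8 and 14.3 FPKM in KO ESC and 14.5 and 16.4 FPKM in WT ESC. The NPC groups came close to each other, and the change of 0.26 ± 0.12 was not called (adjusted p = 0.143).

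All 5 genes of spindle motors and microtubule proteins were higher in KO NPC. Hmmr, a microtubule-binding protein of the spindle poles, had 35.4 and 35.6 FPKM in KO NPC, 24.1 and 23.6 FPKM in WT NPC, 42.6 and 41.4 FPKM in KO ESC and 41.2 and 41.3 FPKM in WT ESC. Libraries of the same group lay very close for this gene, and the change was 0.55 ± 0.06 (adjusted p = 6.80e-04). Kif2c, a kinesin that depolymerises microtubules at centromeres, had 31.1 and 32.0 FPKM in KO NPC, 25.2 and 21.9 FPKM in WT NPC, 38.8 and 38.2 FPKM in KO ESC and 41.5 and 43.5 FPKM in WT ESC. Its change was 0.41 ± 0.08 (adjusted p = 0.00934), with the WT NPC libraries the lowest. Nusap1, which bundles spindle microtubules, averaged 43.1 ± 1.02 FPKM in KO NPC and 31.7 ± 0.3996 FPKM in WT NPC, a change of 0.43 ± 0.09. Kif11, the motor that separates spindle poles, averaged 31.6 ± 0.841 FPKM in KO NPC and 25.2 ± 0.858 FPKM in WT NPC, a change of 0.32 ± 0.06. Tpx2, an activator of Aurora A and of microtubule nucleation, averaged 43.6 ± 0.357 FPKM in KO NPC and 36.3 ± 1.44 FPKM in WT NPC, a change of 0.26 ± 0.06 (SD, n = 2 each for the means).

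None of the 4 genes of the step that starts anaphase passed the test. Cdc20, which activates the anaphase-promoting complex (APC/C, the ubiquitin ligase that marks securin and cyclin B for destruction; chr4:118105506-118109948, mm9), had 52.2 and 45.9 FPKM in KO NPC, 38.6 and 43.1 FPKM in WT NPC, 97.98 and 92.6 FPKM in KO ESC and 98.3 and 98.2 FPKM in WT ESC. Its KO NPC libraries lay above those of WT NPC, and the change was 0.26 ± 0.09 (adjusted p = 0.0659). Espl1, separase, the protease that cuts cohesin, had 8.74 and 9.44 FPKM in KO NPC, 8.89 and 7.45 FPKM in WT NPC, 17.4 and 16.4 FPKM in KO ESC and 15.8 and 17.4 FPKM in WT ESC. The NPC groups overlapped, at a change of 0.14 ± 0.11 (adjusted p = 0.388). Ube2c, the conjugating enzyme that works with the APC/C and the member with the highest single value in the libraries, averaged 155 ± 1.73 FPKM in KO NPC and 139.9 ± 7.53 FPKM in WT NPC, a change of 0.14 ± 0.06 (adjusted p = 0.145). Pttg1, securin, the inhibitor of separase, had 6.90 and 4.82 FPKM in KO NPC, 9.64 and 7.78 FPKM in WT NPC, 4.55 and 4.88 FPKM in KO ESC and 6.38 and 7.16 FPKM in WT ESC. It was the 1 member with both KO NPC libraries below both WT NPC libraries, and is given in full for that reason, after its values were seen. The change of -0.51 ± 0.17 did not pass (adjusted p = 0.0675), and Pttg1 had the fewest implied fragments of the 36. It was called lower without KO NPC replicate 1 (-0.73, adjusted p = 0.0343) and under quantile normalization (-0.58, adjusted p = 0.0438). Whether these 4 genes differ from the other members was not tested.

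Of the 5 cytokinesis genes, 3 were higher. Anln, anillin, which links actin and myosin in the cleavage furrow, had 22.4 and 22.2 FPKM in KO NPC, 15.8 and 15.0 FPKM in WT NPC, 50.5 and 48.3 FPKM in KO ESC and 43.6 and 47.4 FPKM in WT ESC. Its change was 0.51 ± 0.07 (adjusted p = 0.00240), and both NPC groups lay far below both ESC groups. Kif20a, a kinesin of the spindle midzone, had 33.7 and 32.7 FPKM in KO NPC, 22.9 and 25.1 FPKM in WT NPC, 55.9 and 55.8 FPKM in KO ESC and 50.9 and 55.2 FPKM in WT ESC. It was higher in KO NPC by 0.45 ± 0.07 (adjusted p = 0.00443). Kif23, the kinesin of the centralspindlin complex, averaged 29.5 ± 0.154 FPKM in KO NPC and 21.4 ± 0.282 FPKM in WT NPC (SD, n = 2 each), a change of 0.44 ± 0.07 (adjusted p = 0.00325). Prc1, which cross-links midzone microtubules, and Ect2, the exchange factor that activates RhoA at the furrow, overlapped between the NPC groups. Their changes were 0.08 ± 0.11 and 0.08 ± 0.07, and neither was called.

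Both genes of chromosome structure were higher in KO NPC. Top2a, the topoisomerase that untangles sister chromatids (chr11:98854261-98885503, mm9), had 179 and 195 FPKM in KO NPC, 140.3 and 125 FPKM in WT NPC, 144 and 134 FPKM in KO ESC and 135 and 144 FPKM in WT ESC. The KO NPC libraries were the highest, and the other 3 groups lay within a narrow band. Its change was 0.49 ± 0.08 (adjusted p = 0.00514). Mki67, the Ki-67 protein that coats mitotic chromosomes and serves as a marker of dividing cells (chr7:142881471-142908062, mm9), had 58.6 and 63.8 FPKM in KO NPC, 45.7 and 42.6 FPKM in WT NPC, 31.0 and 25.5 FPKM in KO ESC and 27.1 and 29.5 FPKM in WT ESC. Both NPC groups were above both ESC groups, KO NPC most, with a change of 0.46 ± 0.11 in KO NPC against WT NPC (adjusted p = 0.0178).

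The change in knockout NPC was set beside the promoter motifs. Among the 22 members with a CHR core, 13 were higher in KO NPC and the median change was 0.41. Among the 8 matched members without one, 6 were higher and the median was 0.28. For the NF-Y box the medians went the other way. With a box 14 of 24 were higher, with a median of 0.30, and without one 5 of 6, with a median of 0.42. With both motifs 11 of 20 were higher, with a median of 0.36, and 8 of the other 10, with a median of 0.35. Birc5, with neither motif in its window, had the largest change, and Pttg1, also with neither, the lowest. The ranges overlapped, from 0.04 to 0.62 with a CHR core and from -0.51 to 0.96 without, and no test was made of any of these splits.

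The second comparison asks what the knockout changes before differentiation. In KO ESC none of the 36 was higher or lower than in WT ESC in limma's test, and 6 of the 36 had an unadjusted p under 0.05, against 1686 of all 13318 genes. Few genes passed at all in this contrast, 0.128% higher and 0.12% lower of all tested. No member was called under any of the alternative settings either. Changes ran from -0.44 in Pttg1 to 0.28 in Birc5, with a median of 0.01 for the members and -0.01 for all genes. The KO ESC libraries both lay above both WT ESC libraries for 10 members, against 19.5% of all genes, below them for 5, against 24.7% of all genes, and overlapped them for 21.

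The members with the smallest p in ESC were Cdca8 and Birc5, both of the passenger complex and with opposite signs. Cdca8 had 41.7 and 47.4 FPKM in KO ESC, against 53.5 and 52.2 FPKM in WT ESC, a change of -0.24 ± 0.07 (SE, 95% interval -0.42 to -0.07, adjusted p = 0.275). Birc5 had 166 and 192 FPKM in KO ESC, against 145 and 149 FPKM in WT ESC, a change of 0.28 ± 0.08 (95% interval 0.08 to 0.48, adjusted p = 0.281). For both genes the 2 groups of ESC libraries do not overlap. For Cdk1 the change was 0.04 ± 0.07, with a 95% interval of -0.13 to 0.22, and for Mki67 -0.01 ± 0.11, with -0.26 to 0.24. Intervals of this width leave room for modest changes in either direction, so a missed threshold does not show equal levels.

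The difference of the knockout effects, the NPC change minus the ESC change, was tested as an interaction in the same fit. It was above 0 and passed for 12 of the 36 members, and none passed below 0, while 8.41% of all genes passed above and 8.39% below. The largest was 0.69 ± 0.17 for Cenpe (SE, adjusted p = 0.0337), whose knockout change was 0.45 in NPC and -0.23 in ESC. Birc5 followed at 0.69 ± 0.12 (adjusted p = 0.0103), Cdk1 at 0.57 ± 0.10 (adjusted p = 0.0124) and Kif2c at 0.55 ± 0.11 (adjusted p = 0.0188). The other 8 were Hmmr, Ccnf, Top2a, Aurkb, Bub1b, Anln, Ccna2 and Kif11, at 0.34 to 0.53. For the 24 members that did not pass, a difference between the stages was not shown. This count was the least stable of all: it was 3 and 4 without KO NPC replicates 1 and 2, 6 and 2 without those of WT NPC, 4 and 3 without those of KO ESC, and 6 without either of WT ESC. The same marker lists that separate the NPC groups did not separate the ESC groups by any call.

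The third comparison sets NPC against ESC within each genotype. In KO cells 18 of the 36 members fell, 7 rose and 11 were not called, against 28.8% of all genes lower and 41.6% higher. In WT cells 27 fell, 3 rose and 6 were not called, against 31.1% of all genes lower and 41.6% higher. The median change was -0.22 in KO cells, where all genes had 0.17, and -0.50 in WT cells, where all genes had 0.15. Both libraries of KO NPC lay above both of KO ESC for 7 members, against 50.1% of all genes, and below both for 26, against 35.5%. In WT cells the libraries of WT NPC lay above both of WT ESC for 5 members, against 48.7% of all genes, and below both for 28, against 37.5%. Under median-ratio scaling, which lowers the median of all genes by 0.15 in KO cells and 0.12 in WT cells, the split was 6 higher and 28 lower in KO cells and 2 higher and 29 lower in WT cells. Relative to the median of all genes, the members' median stood at -0.39 in KO and -0.65 in WT cells, and at -0.43 in KO and -0.67 in WT cells under that scaling. Quantile normalization made the fall smaller: 7 members were higher and 12 lower in KO cells, 5 higher and 23 lower in WT cells, and the members' median relative to all genes was -0.10 in KO and -0.28 in WT cells. The KO NPC and WT NPC libraries serve in this comparison and in the knockout comparison of NPC, so the results are not independent.

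**Figure D4:**
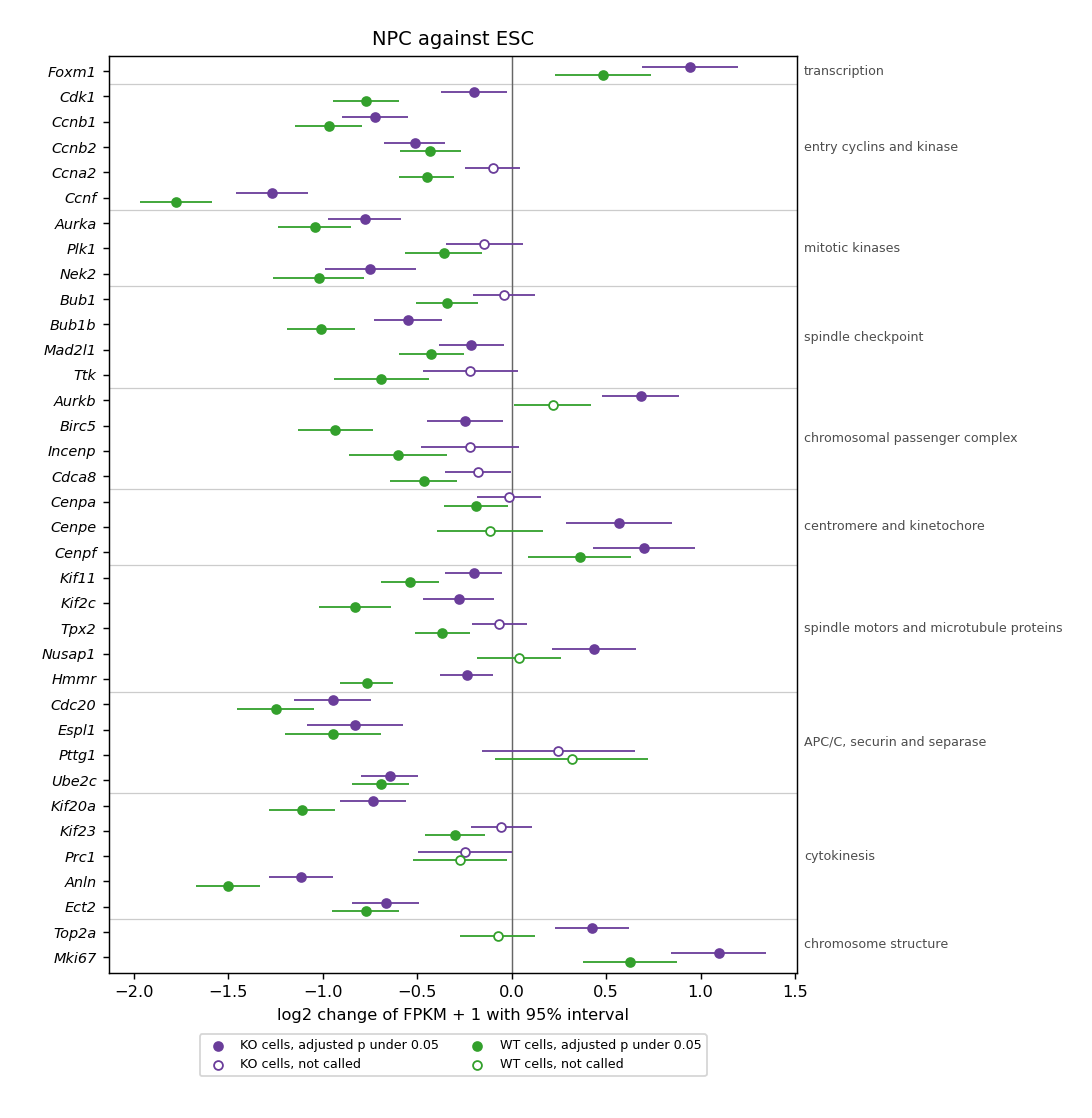
Log2 change of FPKM + 1 with its 95% interval in NPC against ESC for 36 mitosis genes, in KO cells (purple) and WT cells (green), grouped by role. Filled points have an adjusted p under 0.05. Most points lie left of 0, from -1.78 for Ccnf in WT cells, and Foxm1, Cenpf and Mki67 lie right of it in both genotypes.

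By role, the 3 mitotic kinases had the lowest median change in both genotypes, -0.75 in KO cells and -1.02 in WT cells. The single members with the lowest changes were in the groups named entry, cytokinesis and anaphase. Ccnf fell by 1.27 in KO cells and by 1.78 in WT cells on the log2 scale (adjusted p = 9.04e-06 and 1.86e-06). Anln changed by -1.11 ± 0.07 in KO cells and -1.50 ± 0.07 in WT cells (SE). Cdc20 changed by -0.95 ± 0.09 in KO cells and -1.25 ± 0.09 in WT cells. These 3 were the members with the lowest changes in both genotypes, followed by Espl1 in KO cells, at -0.83 ± 0.11, and by Kif20a in WT cells, at -1.11 ± 0.07. In KO cells 4 of 5 entry genes, 2 of 3 mitotic kinases and 2 of 4 checkpoint genes fell, with Ccna2, Plk1, Bub1 and Ttk not called. In WT cells all of these 12 genes fell.

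A few members went up on differentiation. Mki67 rose by 1.10 ± 0.11 in KO cells and by 0.63 ± 0.11 in WT cells (SE, adjusted p = 7.50e-05 and 0.00127). Foxm1 rose by 0.95 ± 0.11 in KO cells and by 0.49 ± 0.11 in WT cells. Cenpf rose by 0.70 ± 0.12 in KO cells and by 0.36 ± 0.12 in WT cells. The WT call for Cenpf was lost without WT NPC replicate 1 (adjusted p = 0.131) and without WT ESC replicate 1 (adjusted p = 0.124). In KO cells 4 more passed: Aurkb at 0.68 ± 0.09, Cenpe at 0.57 ± 0.12, Nusap1 at 0.44 ± 0.09 and Top2a at 0.42 ± 0.08. In WT cells their changes were 0.22 ± 0.09, -0.12 ± 0.12, 0.04 ± 0.09 and -0.07 ± 0.08, none of them called. A difference between the genotypes in this change is the same quantity as the difference of the knockout effects above, which passed for Aurkb, Cenpe and Top2a and not for Nusap1. Those 3 calls were not firm: that of Aurkb was lost under median-ratio scaling (adjusted p = 0.0786), quantile normalization (adjusted p = 0.0973), with a pseudocount of 0.1 (adjusted p = 0.0512) and in 7 of the 8 fits without 1 library, and those of Cenpe and Top2a in 7 of the 8 each. With no filter on low values all 3 were lost (adjusted p 0.0865 to 0.0997).

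Members of the same complex received different calls on differentiation. In the passenger complex, Birc5 changed by -0.25 ± 0.08 in KO cells and -0.93 ± 0.08 in WT cells, while the kinase Aurkb rose in KO cells and was not called in WT cells. Cdca8 had -0.18 ± 0.07 and -0.47 ± 0.07, and Incenp -0.22 ± 0.11 and -0.60 ± 0.11, in KO and WT cells. In KO cells only Birc5 of these 3 passed as lower, and in WT cells all 3 did. Among centromere genes, Cenpa had -0.01 ± 0.07 in KO cells and -0.19 ± 0.07 in WT cells, and its WT call was lost in all 4 fits without 1 WT library and both without 1 KO NPC library (adjusted p 0.0623 to 0.168). In KO cells the small falls of Cdk1 and Kif11 lost their call without any 1 of the 4 KO libraries, and that of Cdk1 also without either WT NPC library. Mad2l1 and Birc5 lost it without either KO NPC library or KO ESC replicate 2, and Kif2c without KO NPC replicate 1 or either KO ESC library. The adjusted p in these fits ran from 0.0506 to 0.208.

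Other genes of the same processes were counted from lists that share no member with the 36. Of 76 other mitosis genes, 46 were higher and 2 lower in KO NPC than in WT NPC (60.5% and 2.63%, against 14.7% and 12.7% of all genes), with a median of 0.37. The largest changes were Depdc1a, a regulator of mitotic progression, at 1.25 ± 0.10, Cdc25b at -0.99 ± 0.10, Ndc80 at 0.92 ± 0.12 and Cenpk at 0.92 ± 0.16 (SE). Ndc80 is the microtubule-binding part of the kinetochore and Cenpk a part of the inner kinetochore. Cdc25b, a phosphatase that activates Cdk1, had 9.85 and 9.55 FPKM in KO NPC, against 19.1 and 21.3 FPKM in WT NPC, and so ran opposite to Cdk1 itself. Of 36 DNA replication genes, 29 were higher (80.6%, against 14.7% of all genes) and none lower (12.7% of all genes), with a median of 0.42. Prim1 led at 0.68 ± 0.07, with Tyms at 0.68 ± 0.07, Mcm5 at 0.68 ± 0.07 and Orc1 at 0.66 ± 0.12. These encode a primase subunit, thymidylate synthase, a subunit of the replicative helicase and a subunit of the origin recognition complex. The higher levels in KO NPC were thus not limited to mitosis genes.

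Of 15 APC/C genes, 4 were higher in KO NPC (26.7%, against 14.7% of all genes) and none lower (12.7% of all genes). Their median was 0.12. The 4 were Anapc16 at 0.48 ± 0.14, Anapc11 at 0.44 ± 0.09, Cdc27 at 0.29 ± 0.08 and Cdc23 at 0.29 ± 0.08, all subunits of the ligase. Under median-ratio scaling 1 of the 15 was called higher (6.67%), against 1553 of all 13318 genes. Quantile normalization gave 2 (13.3%), against 2033 of all genes. Of 21 regulators of mitotic transcription, 5 were higher and 1 lower (23.8% and 4.76%, against 14.7% and 12.7% of all genes), with a median of 0.27. Median-ratio scaling gave 3 higher and 2 lower, and quantile normalization 5 higher and 3 lower. The MuvB genes Lin54, Lin9 and Lin37 changed by 0.52 ± 0.11, 0.49 ± 0.10 and 0.47 ± 0.13. Rb1, the retinoblastoma protein that restrains cell cycle entry, was the 1 lower gene, at -0.90 ± 0.15, with 7.08 and 6.50 FPKM in KO NPC, against 12.5 and 14.7 FPKM in WT NPC. In KO ESC against WT ESC no gene of these 4 lists passed. The smallest p of each list was that of Lmnb1 (adjusted p = 0.185), Mcm6 (adjusted p = 0.201), Anapc11 (adjusted p = 0.3001) and Lin9 (adjusted p = 0.251).

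**Figure D5:**
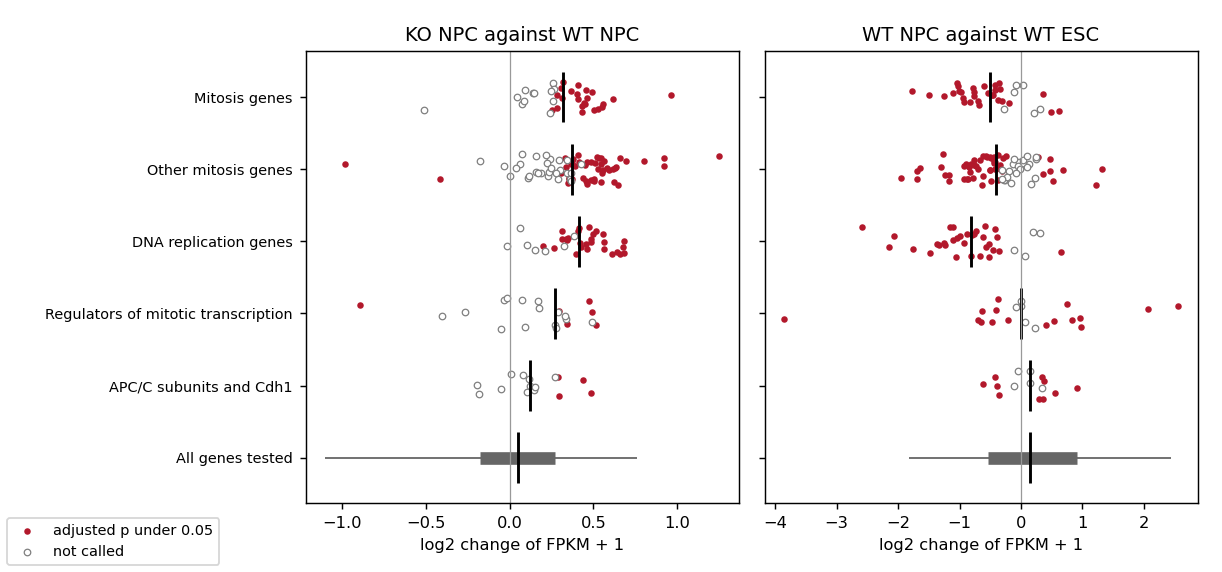
Log2 change of FPKM + 1 of each gene of 5 lists in KO NPC against WT NPC and in WT NPC against WT ESC, 1 point per gene, red where the adjusted p is under 0.05. Black bars are list medians, and for all 13318 genes tested the grey box spans the 25th to the 75th percentile and the line the 5th to the 95th. The median is 0.32 for the mitosis genes and 0.42 for DNA replication genes in KO NPC against WT NPC, and -0.50 and -0.81 in WT NPC against WT ESC.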

How the data were processed

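Poly(A) RNA was sequenced with a directional kit in 8 libraries, per the labels' protocols. Per the submitters' processing notes, the authors used TopHat2 2.1.1, Cufflinks 2.2.1 and mm9. The deposited tables hold FPKM per gene with confidence bounds and no counts. Each held 24854 entries. The 285 symbols with several entries were summed and 12 with a failed estimate left out, which left 24306. Implied fragments follow from the upper bound, which lies above the FPKM by 2 square roots of the fragment number.

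The 13318 genes that reached 1 FPKM in 2 or more libraries entered 1 linear model of log2(FPKM + 1) over the 4 groups (limma 3.58.1, R 4.3.3). It used an intensity trend of the variance and left 4 residual degrees of freedom. A change on this scale understates that of low genes. Tests were two-sided, over 5 contrasts, with Benjamini-Hochberg adjusted p under 0.05 within each. The script was tested on simulated data. The changes planted there were larger than that of any member in KO NPC against WT NPC, so recovery of changes as small as those was not tested. The fit was repeated with each library left out, with the replicate number as a block, with the compared groups alone, after quantile normalization or median-ratio scaling, with a pseudocount of 0.1, with the FPKM minimum dropped or set to 5, and with the highest entry of a symbol in place of the sum. Values per library are given for 10 core genes, the 4 called members that changed most in each direction per contrast (fewer where fewer passed), or the 2 with the smallest p. Of the other lists, the up to 4 called genes with the largest change are named, or the 1 with the smallest p. The members and lists were chosen with earlier results of these data known. Gene positions are mm9, as deposited, and promoters are RefSeq on GRCm38.p6.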

Additional observations from a re-analysis of the deposited data

Results flagged for a closer look

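For 12 of the 36 mitosis genes the knockout effect differed between the stages by the interaction test, with a larger change in NPC than in ESC. Of all genes, 8.41% passed above 0. The count was 7 with the replicate number as a block, 8 under median-ratio scaling and 10 under quantile normalization. It also fell in each fit without 1 library, as given above. Anln, Aurkb, Ccna2 and Kif11 lost their call both with the block and under median-ratio scaling. The difference on the log2 scale was 0.69 for Cenpe, 0.69 for Birc5, 0.57 for Cdk1, 0.55 for Kif2c, 0.53 for Hmmr, 0.51 for Ccnf, 0.50 for Top2a, 0.47 for Aurkb, 0.46 for Bub1b, 0.39 for Anln, 0.35 for Ccna2 and 0.34 for Kif11. All 12 were called higher in KO NPC against WT NPC, and none was called in KO ESC against WT ESC. Among these 12 the lowest ESC changes were those of Aurkb, Cenpe and Kif2c, at -0.16, -0.23 and -0.14.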

How the results depend on the processing

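Without 1 library, the members called higher in KO NPC against WT NPC numbered 11 to 25, those called lower 0 to 1, and those with a difference between the stages 2 to 6. Under quantile normalization 1 member, Pttg1, was called lower in KO NPC (-0.58, adjusted p = 0.0438), and 5 rose in WT NPC against WT ESC. Median-ratio scaling gave 28 lower members in KO NPC against KO ESC. Quantile normalization turned the sign of Ccnb2 (-0.0025) and Cdca8 (-0.033) in KO NPC against WT NPC, of Cenpa (0.053) in WT NPC against WT ESC, and of Birc5 (0.16) and Mad2l1 (0.11) in KO NPC against KO ESC. Median-ratio scaling turned that of Cdca8 (-0.0057). Without 1 library, Ect2 ran from -0.00055 to 0.151 and Prc1 from -0.0555 to 0.225, below 0 without WT NPC replicate 2. The cause of these shifts was not tested, except that fits without a library have fewer samples. With the replicate number as a block, 24 members were higher in KO NPC, with Bub1 lost (adjusted p = 0.0523) and Plk1 gained (adjusted p = 0.0431), and 7, not 12, had a difference between the stages, with Anln, Aurkb, Ccna2, Cenpe and Kif11 lost (adjusted p 0.0503 to 0.0695). Of the other lists, Cdc23 and Lin37 lost their call in KO NPC. In differentiation the block also ended the calls of Cenpa in WT cells (adjusted p = 0.0564) and Cdk1 in KO cells (adjusted p = 0.0629). Deviations of libraries with the same number correlated by -0.05 to 0.18 across genes between groups of 2, so the numbers were not taken as pairs. Median-ratio scaling and quantile normalization gave 19 and 20 members higher in KO NPC and 8 and 10 with a difference between the stages. With no filter, 7 of the 24 calls and 5 of the 12 were lost. The other counts over the 36 members stayed within 1.5 times. Counts over the other lists moved by more. In KO NPC against WT NPC, the APC/C genes had 4 higher, but 1 with no filter or median-ratio scaling and 2 under quantile normalization or with the compared groups alone. The regulators had 5 higher, but 3 under median-ratio scaling or with the compared groups alone, and 1 lower, but 2 in both of those fits and with the block, and 3 under quantile normalization. In KO NPC against KO ESC, 21 of the other mitosis genes rose, but 11 under median-ratio scaling, which also gave 4, not 2, lower APC/C genes, and quantile normalization gave 4, not 2, higher DNA replication genes. In WT NPC against WT ESC it gave 3 of these, not 1. For the difference between the stages, dropping the filter gave 11, not 28, other mitosis genes, 12, not 19, DNA replication genes, 0, not 1, APC/C genes and 2, not 1, regulators, while the block gave 3 regulators and quantile normalization 2, not 1, other mitosis genes below 0. Over all genes, an FPKM minimum of 5 gave 1059, not 1686, lower in KO NPC against WT NPC and 690, not 1117, below 0 for the difference between the stages. In KO ESC against WT ESC the 17 higher were 28 with no filter and 10 with the block, and the 16 lower were 9 with a pseudocount of 0.1, 10 under quantile normalization and 5 with the block. Without 1 library, the genes higher in KO NPC against WT NPC numbered 26 to 41 of the other mitosis genes, 18 to 28 of the DNA replication genes, 0 to 3 of the APC/C genes and 1 to 5 of the regulators, and 925 to 1785 of all genes. Depth was inferred and not counted, and it was lowest for Pttg1.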

Other observations

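Of the 21 regulators of mitotic transcription, 10 rose and 6 fell in KO NPC against KO ESC (47.6% and 28.6%, against 41.6% and 28.8% of all genes), and 8 rose and 8 fell in WT NPC against WT ESC (38.1% each, against 41.6% and 31.1% of all genes). These shares are near those of all genes, and the genes that follow are given for their own values. Mybl2, which encodes B-Myb, the partner of MuvB in S phase and G2, had 10.2 and 10.4 FPKM in KO NPC and 134 and 136 FPKM in KO ESC, a log2 change of -3.59 ± 0.06 (SE). It had 9.03 and 9.06 FPKM in WT NPC and 146 and 143 FPKM in WT ESC, a change of -3.85 ± 0.06. These falls were larger than that of any of the 36 mitosis genes, and Foxm1 moved the other way. Rb1 rose by 1.99 ± 0.15 in KO cells and 2.55 ± 0.15 in WT cells, and Dyrk1b, a DYRK kinase, by 2.18 ± 0.19 and 2.07 ± 0.19. Rbl1, the pocket protein p107, rose by 1.25 ± 0.16 in KO cells, and Tfdp2, a dimer partner of E2F proteins, by 0.98 ± 0.13 in WT cells.

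Of the 76 other mitosis genes, 21 rose and 24 fell in KO NPC against KO ESC (27.6% and 31.6%, against 41.6% and 28.8% of all genes), and 8 rose and 45 fell in WT NPC against WT ESC (10.5% and 59.2%, against 41.6% and 31.1%). In KO cells the share that fell is near that of all genes, and under median-ratio scaling 11 rose and 32 fell. Tubb4b, a beta-tubulin, changed by -1.76 ± 0.06 in KO cells and -1.95 ± 0.06 in WT cells, Gtse1 by -1.43 ± 0.07 and -1.69 ± 0.07, and Cep55, a protein of the final cut between daughter cells, by -1.42 ± 0.07 and -1.70 ± 0.07. Cenpm changed by -1.64 ± 0.11 in WT cells and Cenpk by 1.46 ± 0.16 in KO cells. The difference of the knockout effects passed above 0 for 28 and below 0 for 1 of these 76 (36.8% and 1.32%). Of all genes, 8.41% passed above 0 and 8.39% below. Cenpk had 1.23 ± 0.23, Depdc1a 1.06 ± 0.14, Cdc25b -0.96 ± 0.15 and Smc2, a condensin subunit, 0.87 ± 0.18. Of the 36 DNA replication genes, 2 rose and 21 fell in KO NPC against KO ESC (5.56% and 58.3%). In WT NPC against WT ESC 1 rose and 31 fell (2.78% and 86.1%). Of all genes, 41.6% rose and 28.8% fell in KO cells, and 41.6% rose and 31.1% fell in WT cells. Orc1 changed by -1.95 ± 0.12 in KO cells and -2.58 ± 0.12 in WT cells. Of the 15 APC/C genes, 9 rose and 2 fell in KO cells (60% and 13.3%), and 6 rose and 4 fell in WT cells (40% and 26.7%), the WT shares being near those of all genes. Under median-ratio scaling 6 rose and 4 fell in KO cells. Cdc16 changed by 1.09 ± 0.09 in KO cells and 0.91 ± 0.09 in WT cells.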
